A study of Mus musculus with 3 samples.

Results

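The nuclei described here carried transcripts of Angpt1, a secreted ligand of the receptor Tie2, together with Col25a1, a transmembrane collagen of neurons, and the long antisense RNA 9530026P05Rik. They are a small group of 96 nuclei among 9027 that passed the quality limits, out of 17517 barcodes in all. A nucleus passed with at least 1000 detected genes and at most 5% of its unique molecular identifiers (UMIs, counted transcript molecules) from mitochondrial genes. It was taken as a member when it had at least 2 UMIs of Angpt1, at least 2 of Col25a1 and at least 1 of 9530026P05Rik, with Tox under 300 CPM (UMIs of a gene scaled to a library size of 1e6) and Pard3b under 200 CPM. The members, called Angpt1/Col25a1 nuclei, were set against the 2924 other passing nuclei with Meis1 and Meis2 summing to at least 200 CPM and Tox under 300 CPM, called other Meis nuclei. The groups were thus chosen by the measured levels of these 5 genes and the Meis genes, so their levels are given as a description with no test. The other genes were measured in the same nuclei, so the calls below describe how nuclei chosen in this way differ from the rest.

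All nuclei came from uninjured C57BL/6 mice, a common inbred laboratory strain, in 3 libraries labelled biological replicates 1, 2 and 3 of a single group. A retrograde label in the lumbar cord had marked the brain neurons whose axons reach that level. Labelled tissue was dissected from sagittal brain slices under fluorescence, and nuclei were sorted and sequenced by the droplet method of 10x Genomics. The sources used here do not give the tracer, the age and sex of the mice or the number of animals per library. The p-values rest on the spread between these libraries, which may be technical, with its estimate pooled over genes on 2 residual degrees of freedom. They do not measure the spread between nuclei, so an adjusted p can be small where 1 nucleus holds most UMIs, as for Grk4 below.

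As background, angiopoietin 1 is best known as the ligand that stabilises blood vessels through Tie2, the product of Tek. The Meis and Pbx proteins are homeodomain cofactors that bind DNA with Hox proteins, and in the hindbrain they take part in giving segments and their neurons an identity along the body axis. Many hindbrain neurons that project to the spinal cord lie in the reticular formation. One class of them, the V2a neurons, is glutamatergic and is marked during development by factors that include Lhx3, Lhx4, Shox2 and Sox14, and it is known for its part in starting and stopping locomotion.

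The libraries held 27435221, 74287112 and 60490064 UMIs for replicates 1, 2 and 3, of which 2710, 11094 and 3713 barcodes were listed and 2679, 2769 and 3579 passed. Angpt1/Col25a1 nuclei numbered 18, 34 and 44, against 1020, 783 and 1121 other Meis nuclei. Their shares of passing nuclei were 0.672% (95% exact Clopper-Pearson interval 0.399% to 1.06%), 1.23% (0.852% to 1.71%) and 1.23% (0.895% to 1.65%). The mean share was 1.04% ± 0.321 (SD, n = 3), and the intervals, which cover counting error only, overlapped. As shares of members and other Meis nuclei together they were 1.73% (1.03% to 2.73%), 4.16% (2.90% to 5.77%) and 3.78% (2.76% to 5.04%). There the interval of replicate 1 lay below the other 2. These shares are of sorted nuclei, so the dissection, the sort and the UMI minimum of the rule can set them. The members were deeper, with median totals of 9579, 21605.5 and 13717.5 UMIs per nucleus, against 7031, 14549 and 10502 in other Meis nuclei. The part of this depth difference in the results was not tested beyond the depth-matched values given below. No barcode was shared between libraries among the members, against 3, 2 and 1 shared passing barcodes for the library pairs as a whole. Doublets, called with Scrublet in 110 passing nuclei, included 0 of the 96 members.

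The genes of the rule differed by construction, and the size of the difference is shown by library. Angpt1 stood at 286, 214 and 299 CPM in Angpt1/Col25a1 nuclei and at 22.2, 16.8 and 23.3 CPM in other Meis nuclei. Col25a1 stood at 622, 501 and 648 CPM, against 62.3, 39.5 and 50.2 CPM in other Meis nuclei. 9530026P05Rik stood at 286, 394 and 412 CPM, against 138, 133 and 146 CPM in other Meis nuclei. The groups did not overlap for any of these, and 9530026P05Rik was common in other Meis nuclei too. Adamts3, a protease that processes procollagens, the lymphatic growth factor VEGF-C and reelin, and Pbx3, a DNA-binding partner of Hox and Meis proteins, came with the rule as markers but were not conditions. Adamts3 was at 148, 118 and 188 CPM, against 41.8, 31.6 and 46.7 CPM in other Meis nuclei. Pbx3 was at 1214, 702 and 926 CPM, against 485, 302 and 433 CPM in other Meis nuclei. Meis2, which the rule did not ask of members, was at 892, 696 and 856 CPM, against 680, 602 and 652 CPM. Of the 96 members, 95 had Meis1 and Meis2 at 200 CPM or more.

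At the edge of the rule, 29 members had exactly 2 Angpt1 UMIs, 12 had exactly 2 Col25a1 UMIs and 13 had 1 UMI of 9530026P05Rik. Just outside it, 197 nuclei missed only the Angpt1 condition, 45 of them with 1 UMI, and 82 missed only the Col25a1 condition, 14 of them with 1 UMI. A further 12 missed only 9530026P05Rik, 6 missed only Tox, at 340 to 1013 CPM, and 2 missed only Pard3b, at 291 and 417 CPM. The highest Tox level in a member was 229 CPM and the highest Pard3b level 107 CPM, and 70 members had no Tox UMI and 84 no Pard3b UMI. The UMI conditions on the 3 positive genes were met by 95 of 2628 nuclei with Meis at the limit and both Tox and Pard3b low (3.61%). They were met by 2 of 391 nuclei with high Pard3b (0.512%), by 1 of 1801 nuclei low in Meis and Tox (0.0555%) and by 6 of 4207 nuclei with Tox at 300 CPM or more (0.143%).

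On the mouse build GRCm38, Angpt1 spans chr15:42424723-42676977 on the minus strand and Col25a1 chr3:130131501-130599877 on the plus strand. The antisense RNA 9530026P05Rik spans chr6:92940329-93272979 on the plus strand and shares 3164 bases with the 5′ end of Adamts9, a proteoglycan-cleaving protease gene on the minus strand at chr6:92772699-92943492. No annotated exons of these 2 genes overlap, so the shared stretch is intronic in at least 1 of them. The sources used here do not say whether the authors' counting used strand, so the Adamts9 level is not independent of the rule. The start region of 9530026P05Rik (chr6:92940332-92940631, plus strand) is printed because it lies inside Adamts9. That of Thsd7a (chr6:12749204-12749503, minus strand), one of the genes called higher below, is printed because it holds the core letters bound by Meis proteins. Both run 250 bases upstream to 50 downstream of the RefSeq start on GRCm38.p6, with TGACAG or its reverse complement CTGTCA in capitals. The RefSeq starts differ from those of the gene spans used here. The printed 9530026P05Rik region therefore lies wholly inside its span. Most of the Thsd7a region, with the marked letters, lies inside that gene's span, chr6:12311610-12749410.
9530026P05Rik: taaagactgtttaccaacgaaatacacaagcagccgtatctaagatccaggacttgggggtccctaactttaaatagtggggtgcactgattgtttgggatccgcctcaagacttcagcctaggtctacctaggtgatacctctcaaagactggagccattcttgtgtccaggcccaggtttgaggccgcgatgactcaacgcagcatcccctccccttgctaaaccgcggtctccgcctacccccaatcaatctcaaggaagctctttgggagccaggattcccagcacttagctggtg
Thsd7a: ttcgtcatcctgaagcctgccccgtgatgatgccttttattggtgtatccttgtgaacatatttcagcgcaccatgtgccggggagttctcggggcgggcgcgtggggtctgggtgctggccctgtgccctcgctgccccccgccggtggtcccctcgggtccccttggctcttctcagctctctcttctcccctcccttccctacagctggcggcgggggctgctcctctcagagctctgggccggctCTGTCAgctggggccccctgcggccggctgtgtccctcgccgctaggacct
The first sequence held no match and the second held 1. Searched on both strands, TGACAG occurred in 20 of the 86 genes called higher that had a listed start region (23.3%) and in 48 of the 209 called lower (23.0%). It occurred in 2124 of 10837 tested genes (19.6%) and in 19.2% of all 32851 start regions. A match is a description of these letters and not a binding site.

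Markers fixed for the brain regions and other cell types were compared with the hindbrain label. The 8 genes of the hindbrain glutamatergic list, among them Slc17a6, Lhx4, Sox14 and Hoxb3, all had UMIs and summed to between 199 and 268 CPM over the libraries in Angpt1/Col25a1 nuclei. They summed to between 176 and 218 CPM in other Meis nuclei and to between 11.99 and 14.2 CPM in nuclei with high Tox. In the remaining passing nuclei, low in Meis and Tox, they summed to between 112 and 133 CPM, so the list is not particular to Meis nuclei. The corticospinal list without Tox summed to between 35.7 and 91.2 CPM in Angpt1/Col25a1 nuclei, between 155 and 272 CPM in other Meis nuclei and between 1408 and 1452 CPM in high-Tox nuclei. Inhibitory markers summed to between 5.10 and 11.5 CPM, against 7.36 to 23.0 CPM in other Meis nuclei. Of the oligodendrocyte progenitor markers, Vcan had UMIs and Pdgfra, Cspg4, Olig1 and Olig2 had 0. The oligodendrocyte list summed to between 10.2 and 40.2 CPM, against 43.4 to 55.3 CPM in other Meis nuclei. The hypothalamic list, in which Sim1, Avp and Otp were at 0, summed to between 71.4 and 251 CPM, against 118 to 204 CPM. Its orexin gene Hcrt was at 35.7, 92.4 and 31.6 CPM in Angpt1/Col25a1 nuclei, against 73.0, 125 and 37.2 CPM in other Meis nuclei.

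**Figure D1:**
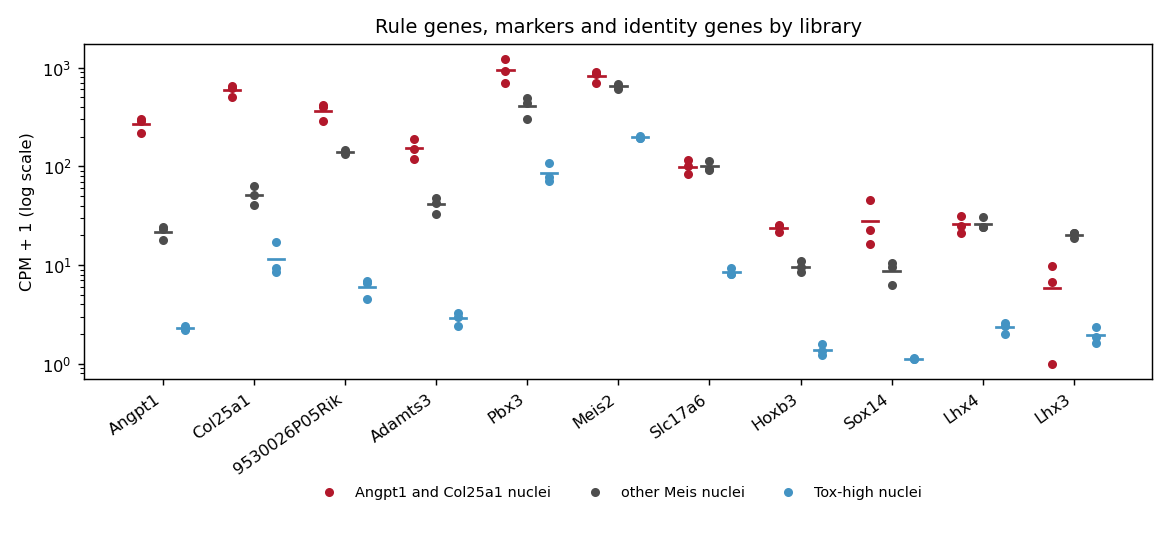
CPM plus 1 on a log axis for the rule genes, their markers and identity genes, 1 point per library with the mean as a bar, in Angpt1/Col25a1 nuclei, other Meis nuclei and high-Tox nuclei. Angpt1, Col25a1 and 9530026P05Rik separate the groups by construction, Slc17a6 overlaps between the first 2 groups, and Lhx3 was listed at 0 in the members of replicate 1.

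Most of the nuclei carried a vesicular glutamate transporter. Slc17a6, which loads glutamate into synaptic vesicles, was at 81.6, 98.8 and 113 CPM in Angpt1/Col25a1 nuclei and at 93.1, 90.2 and 113 CPM in other Meis nuclei. The groups overlapped and the gene did not pass the test (log2 fold change 0.11, SE 0.14, edgeR quasi-likelihood adjusted p = 0.873). It had a UMI in 66 of the 96 members, and thinned to 5000 UMIs per nucleus the mean share over libraries was 37.8% in members, 36.6% in other Meis nuclei and 4.10% in high-Tox nuclei. Any of the 3 vesicular glutamate transporters had a UMI in 74 members. Any of the inhibitory genes Gad1, Gad2, Slc32a1 and Slc6a5 had one in 8, 2 or more of those genes in 1, and 20 members had a UMI of neither kind. Tph2, the enzyme of brain serotonin synthesis, and Slc6a2, the noradrenaline transporter, had 0 UMIs over all members. At 160 UMIs in other Meis nuclei, Slc6a2 was at least 2.45-fold lower in members, with 3 UMIs over all members taken for 0, and its adjusted p of 0.0263 was 0.543 without replicate 2 and 0.386 without replicate 3. Of 11 transmitter genes tested, 0 were called higher and 2 lower, beside 0.819% and 2.02% of all genes tested. Their median log2 fold change was -0.70, beside -0.02 over all genes tested. DESeq2, used as a second test, called 0 of these 11 genes.

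Genes count as called below where edgeR's quasi-likelihood test, blocked by library, gave an adjusted p (Benjamini-Hochberg) under 0.05 and the log2 fold change was 1 or more in size. Of 14651 genes tested outside the rule, 120 were called higher (0.819%) and 296 lower (2.02%), 2.84% in all. The direction was the same in all 3 libraries for 94 of the higher and 291 of the lower genes. Whether the library values of the groups overlap is stated below as a description of genes mostly chosen as called. It adds nothing to the test, and the share of all tested genes without overlap is not reported here. Nuclei were also thinned to 5000 UMIs before a looser rule was applied, with at least 1 UMI each of Angpt1, Col25a1 and 9530026P05Rik. By that rule 72 nuclei were members, 50 of them among the 96, and many calls were lost. Among the genes described below these were Vcan (adjusted p = 0.838), Adamts18 (0.291), Gm2694 (0.324), Sox14, Hoxb3, Grm5, Mc4r, Htr7, Sema6a, Ndst3, Drd2, Prdm6, Met, Onecut1 and Kcnk2. In 14 of the higher genes, 1 nucleus held at least 50% of the members' UMIs. The members' summed counts were 196109, 789675 and 696303 UMIs, so that 3 UMIs stand for 15.3, 3.80 and 4.31 CPM in a library and low levels are coarse, above all in replicate 1.

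Among the V2a and other class factors, Sox14 was among those called higher and Lhx3 among those called lower. Sox14 was at 15.3, 44.3 and 21.5 CPM in Angpt1/Col25a1 nuclei, against 5.22, 9.42 and 8.56 CPM in other Meis nuclei, without overlap (log2 fold change 1.89, SE 0.34, adjusted p = 1.71e-06). Without replicate 2 its adjusted p was 0.124. Lhx3 was at 0, 8.86 and 5.74 CPM, against 19.9, 17.9 and 20.0 CPM (-1.48, SE 0.42, adjusted p = 0.0108), and its call was lost without replicate 1 (adjusted p = 0.0515), without replicate 3 (0.331) and with depth matching (0.301). Without replicate 2 the Lhx3 log2 fold change was -2.08. Lhx4 and Shox2 did not pass, at log2 fold changes of -0.05 (SE 0.28) and 0.54 (SE 0.28). Over the whole list, 2 of 15 tested genes were called higher and 6 lower, beside 0.819% and 2.02% of all genes tested. The list median was -0.83, beside -0.02 over all genes, and DESeq2 called 4 of the 15. Sox14 had a UMI in 31 members.

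Hox genes, which mark position along the body axis, included 2 called higher among the 7 tested of 29, and 0 called lower. Over all genes tested the shares were 0.819% and 2.02%. Hoxb3 was at 20.4, 24.1 and 24.4 CPM in Angpt1/Col25a1 nuclei, against 9.96, 7.43 and 8.49 CPM in other Meis nuclei, without overlap (log2 fold change 1.59, SE 0.36, adjusted p = 0.000295). Its adjusted p was 0.0580 without replicate 2 and 0.0619 without replicate 3. Hoxd4 was at 5.10, 17.7 and 15.8 CPM, against 2.31, 6.33 and 4.92 CPM, and the groups overlapped (1.62, SE 0.45, adjusted p = 0.00906). The Hoxd4 adjusted p was 0.269 without replicate 2 and 0.392 without replicate 3. Hoxb4 stood at 5.10, 8.86 and 4.31 CPM, against 0.972, 1.47 and 1.59 CPM, and did not pass (2.21, SE 0.79, adjusted p = 0.0771). The median of the 7 tested Hox genes was 0.92. The other 22 Hox genes did not pass the filter on low counts, and any Hox gene had a UMI in 74 members.

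Several adhesion and matrix genes were among those called higher. Cdh12, a classical type II cadherin that joins cells by calcium-dependent contacts, was at 2534, 1468 and 1817 CPM in Angpt1/Col25a1 nuclei and at 456, 437 and 496 CPM in other Meis nuclei. Its log2 fold change was 2.10 (SE 0.10, adjusted p = 7.27e-94), it had UMIs in 95 of 96 members, and the groups did not overlap. The noncoding RNA Gm49685 overlaps Cdh12 on the same strand, so reads of the pair may not be told apart. It was at 96.9, 36.7 and 56.0 CPM, against 11.3, 8.02 and 11.4 CPM (2.55, SE 0.27, adjusted p = 7.45e-19). Thsd7a, a membrane protein with thrombospondin repeats, was at 561, 472 and 574 CPM, against 138, 145 and 172 CPM (1.88, SE 0.11, adjusted p = 2.52e-65). The secreted protease Adamts18 was at 96.9, 77.2 and 70.4 CPM, against 28.8, 18.2 and 25.5 CPM (1.85, SE 0.20, adjusted p = 1.22e-18). Vcan, the proteoglycan versican, was at 35.7, 24.1 and 33.0 CPM, against 10.4, 6.84 and 10.5 CPM (1.82, SE 0.33, adjusted p = 1.71e-06), with UMIs in 23 members. These genes were chosen as called, and their library values did not overlap between the groups. The related Thsd7b, the contactin Cntn5 and the immunoglobulin adhesion molecule Alcam, chosen here after their values were seen, had log2 fold changes of 1.57, 1.48 and 1.25 (SE 0.10 each). Of 14 tested cadherins, Cdh12 was called higher and Cdh20 and Cdh8 lower, beside 0.819% and 2.02% of all genes tested. Cdh20 was at 30.6, 25.3 and 18.7 CPM, against 70.1, 63.1 and 72.0 CPM (-1.46, SE 0.22, adjusted p = 5.51e-09). Cdh8 had a log2 fold change of -1.12 (SE 0.13), which was -0.94 without replicate 1. The cadherin median was -0.09.

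**Figure D2:**
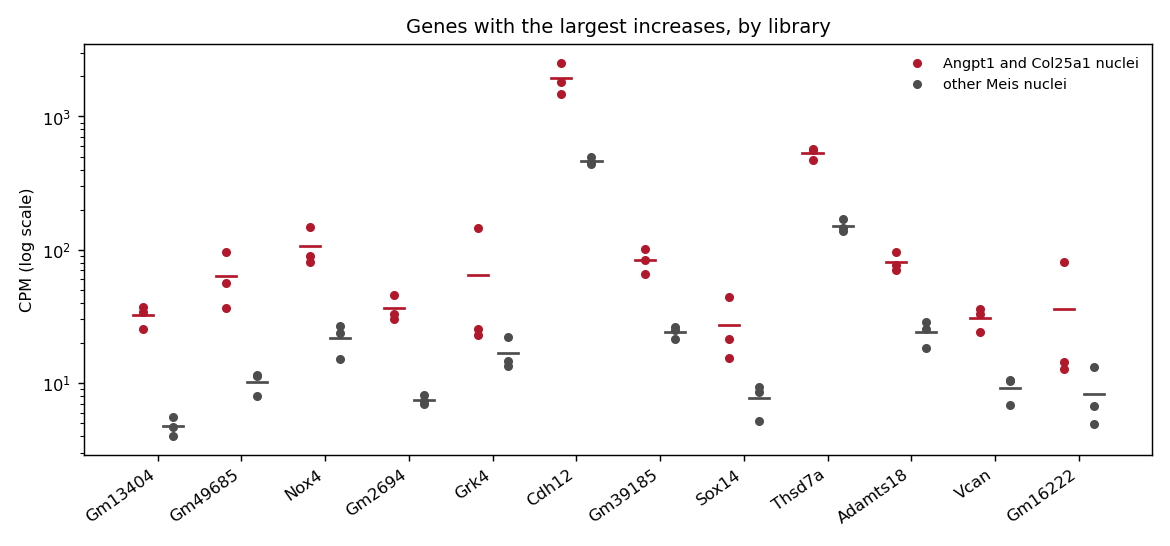
CPM on a log axis for the 12 genes with the largest increases by the naming rule, 1 point per library and the mean as a bar, in Angpt1/Col25a1 nuclei (left of each pair) and other Meis nuclei. Cdh12, Thsd7a and Nox4 separate in every library, and the mean of Grk4 in members is raised by replicate 2 at 146 CPM.

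The remaining genes of the largest increases were of mixed kinds. Nox4, an NADPH oxidase that makes hydrogen peroxide, was at 81.6, 89.9 and 149 CPM in Angpt1/Col25a1 nuclei, against 26.9, 15.2 and 23.8 CPM in other Meis nuclei (log2 fold change 2.50, SE 0.18, adjusted p = 1.27e-40). It had UMIs in 64 members, and the groups did not overlap. The long noncoding RNAs Gm13404, Gm2694 and Gm39185, of no stated role, had log2 fold changes of 2.86 (SE 0.35), 2.29 (SE 0.33) and 1.97 (SE 0.19). Gm13404 was at 25.5, 34.2 and 37.3 CPM, against 4.01, 5.52 and 4.70 CPM. Grk4, a kinase of G-protein-coupled receptors, was at 25.5, 146 and 23.0 CPM, against 22.1, 14.6 and 13.5 CPM, and 1 nucleus held 77.9% of its UMIs in members. Its log2 fold change of 2.19 (SE 0.22, adjusted p = 2.26e-20) was 0.68 without replicate 2 (adjusted p = 0.669). The antisense RNA Gm16222 was at 81.6, 12.7 and 14.4 CPM, against 13.1, 6.70 and 4.92 CPM, with 44.4% of its UMIs in 1 nucleus. Its adjusted p of 3.99e-05 was 0.118 without replicate 1.

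Of 22 tested genes of heparan sulphate synthesis and editing, 3 were called higher and 2 lower, beside 0.819% and 2.02% of all genes tested. The family was taken by gene name after values were seen. Hs6st3, which adds sulphate at the 6-O position of heparan sulphate chains, was at 3503, 2321 and 2826 CPM in Angpt1/Col25a1 nuclei, against 1119, 956 and 951 CPM in other Meis nuclei (log2 fold change 1.58, SE 0.10, adjusted p = 8.14e-56). Hs3st5, a 3-O-sulphotransferase of the same chains, was at 1015, 807 and 929 CPM, against 513, 341 and 401 CPM (1.24, SE 0.10, adjusted p = 9.85e-32). Ndst3, which removes acetyl groups and adds sulphate to the nitrogen, was at 433, 294 and 412 CPM, against 184, 154 and 158 CPM (1.26, SE 0.11, adjusted p = 9.71e-28). None of these overlapped between the groups. Hs3st4, another 3-O-sulphotransferase, was at 86.7, 158 and 111 CPM in Angpt1/Col25a1 nuclei, against 512, 608 and 590 CPM (-2.14, SE 0.13, adjusted p = 6.79e-59). Its members' UMIs lay in 29 of the 96 nuclei, so the lower sum came with no UMI in most members. Hs3st2, a further 3-O-sulphotransferase, was at 0, 25.3 and 17.2 CPM, against 63.8, 59.0 and 47.0 CPM (-1.48, SE 0.25, adjusted p = 1.51e-07). Against high-Pard3b nuclei the Hs3st2 value was 0.45 (adjusted p = 0.743), and with thinning it was -1.12 (adjusted p = 0.205).

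Of growth factor receptors and ligands 3 of 25 tested were called, and of axon guidance genes 8 of 42, beside 2.84% of all genes tested. Erbb4, a receptor for neuregulins, was at 1183, 740 and 741 CPM in Angpt1/Col25a1 nuclei, against 279, 365 and 346 CPM in other Meis nuclei (log2 fold change 1.44, SE 0.10, adjusted p = 2.57e-42), without overlap. Of 25 tested growth factor receptors and ligands it was the 1 called higher, while Met and Gfra2 were called lower, and the median was -0.03. Met, the receptor of hepatocyte growth factor, had 1 UMI over all members, a ratio to other Meis nuclei of 0.0290 (95% exact counting interval 0.000734 to 0.162). Gfra2, a coreceptor of neurturin, was at 0, 6.33 and 2.87 CPM, against 14.8, 26.8 and 12.1 CPM (-2.16, SE 0.49, adjusted p = 0.000367), and its adjusted p was 0.130 without replicate 2.

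Axon guidance genes numbered 3 called higher and 5 lower of 42 tested, with 24 at an unadjusted p under 0.05 and a median of -0.25. Sema3c, a secreted semaphorin, was at 352, 299 and 316 CPM in Angpt1/Col25a1 nuclei, against 115, 122 and 106 CPM in other Meis nuclei (log2 fold change 1.55, SE 0.11, adjusted p = 3.36e-40). The membrane semaphorin Sema6a was at 71.4, 96.2 and 87.6 CPM, against 43.3, 34.4 and 36.0 CPM (1.35, SE 0.17, adjusted p = 6.99e-13). Sema5a, also a membrane semaphorin, was at 35.7, 72.2 and 50.3 CPM, against 236, 175 and 243 CPM (-1.78, SE 0.15, adjusted p = 6.57e-29). These 3 semaphorins differed in direction, and none overlapped between the groups. The ephrin receptor Epha3 was at 30.6, 17.7 and 34.5 CPM, against 59.3, 74.6 and 70.8 CPM (-1.35, SE 0.22), which was -0.92 without replicate 2.

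Among glutamate receptors, 2 of the 5 kainate subunit genes, Grik1 and Grik3, were called lower and the other 3 were not called. Grik1, a kainate-type glutamate receptor subunit, was at 76.5, 94.98 and 58.9 CPM in Angpt1/Col25a1 nuclei, against 487, 428 and 549 CPM in other Meis nuclei (log2 fold change -2.57, SE 0.14, adjusted p = 3.82e-71). Grik3, another subunit, was at 5.10, 7.60 and 1.44 CPM, against 69.9, 52.5 and 53.7 CPM (-3.45, SE 0.35, adjusted p = 2.09e-20), and -4.56 without replicate 2. Grik2 was at 1178, 917 and 1386 CPM, against 1389.9, 983 and 1248 CPM, overlapped between the groups and did not pass (0.03, SE 0.10, adjusted p = 0.962). Grik4 was at 525, 413 and 329 CPM, against 300.2, 268 and 275 CPM, higher without overlap but under the fold limit (0.62, SE 0.11, adjusted p = 4.78e-07). Grik5 overlapped between the groups (-0.04, SE 0.15). The metabotropic receptor gene Grm5 was at 2881, 1862 and 2371 CPM, against 1123, 948 and 1089.7 CPM (1.23, SE 0.10, adjusted p = 6.72e-34). It lies beside Nox4 on chromosome 7. Grm8, an inhibitory presynaptic metabotropic receptor, was at 91.8, 249 and 217 CPM, against 643, 445 and 504 CPM (-1.23, SE 0.12), and -0.96 without replicate 1. Over 24 tested glutamate receptors, 2 were called higher and 3 lower, beside 0.819% and 2.02% of all genes tested. The receptor median was -0.05.

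Among monoamine, acetylcholine and peptide receptors, 4 of 31 tested were called higher and 2 lower, beside 0.819% and 2.02% of all genes tested. The list median was -0.01. Mc4r, the melanocortin receptor that regulates appetite in the hypothalamus, was at 30.6, 12.7 and 11.5 CPM in Angpt1/Col25a1 nuclei, against 2.92, 3.31 and 2.27 CPM in other Meis nuclei (log2 fold change 2.49, SE 0.52, adjusted p = 7.02e-05), with UMIs in 20 members. Htr7, a serotonin receptor, was at 71.4, 101 and 97.7 CPM, against 45.8, 39.6 and 44.2 CPM (1.24, SE 0.16, adjusted p = 7.69e-12). Neither overlapped between the groups. Drd2, a dopamine receptor, had 0 UMIs in members and was at least 9.69-fold lower than the 17.9, 16.5 and 17.5 CPM of other Meis nuclei. Calcr, the calcitonin receptor, named after its values were seen, also had 0 UMIs and was at least 9.59-fold lower.

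Of 37 tested potassium channel genes, 1 was called higher and 4 lower, beside 0.819% and 2.02% of all genes tested. The potassium channel median was 0.04. Kcnh7, an ether-a-go-go related channel, was at 296, 258 and 192 CPM in Angpt1/Col25a1 nuclei, against 844, 791 and 825 CPM in other Meis nuclei (log2 fold change -1.69, SE 0.12, adjusted p = 2.89e-45). Kcnk2, a two-pore-domain leak channel, was at 10.2, 13.9 and 10.1 CPM, against 36.1, 55.9 and 55.1 CPM (-2.08, SE 0.29, adjusted p = 5.92e-11). Kcnn3, a calcium-activated channel, was at 40.8, 94.98 and 89.0 CPM, against 41.4, 41.5 and 41.8 CPM (1.08, SE 0.17), lay below the other nuclei in replicate 1, and was at 0.92 without replicate 2 and 0.93 without replicate 3. In edgeR's test 0 of 10 sodium channel genes and 0 of 21 calcium and HCN channel genes were called, with 6 and 5 at an unadjusted p under 0.05, and DESeq2 called 0 of either list. Among GABA-A and glycine receptors 0 of 17 were called higher and 1 lower, Glra2, at 20.4, 6.33 and 28.7 CPM, against 35.8, 39.1 and 46.6 CPM (-1.20, SE 0.27). Without replicate 2 the Glra2 log2 fold change was -0.62 (adjusted p = 0.541), and without replicate 3 it was -1.98. DESeq2 called 0 of the 17.

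The genes furthest below other Meis nuclei included transcription factors of the Ebf family, which act in neuronal differentiation. Ebf1 was at 35.7, 43.1 and 34.5 CPM in Angpt1/Col25a1 nuclei, against 340, 435 and 404 CPM in other Meis nuclei (log2 fold change -3.33, SE 0.16, adjusted p = 6.32e-89). Ebf3 had 2 UMIs over all members, a ratio of 0.0353 (95% exact counting interval 0.00426 to 0.128). Prdm6, a transcriptional regulator, had 0 UMIs and was at least 12.3-fold lower than the 16.8, 28.0 and 21.0 CPM of other Meis nuclei. These 3 were lower in each library. Other Meis nuclei are a mixture, and part of them carries Ebf1: against the other Meis nuclei with Ebf1 under 200 CPM, a comparison added once the values were known, 323 of the 400 called genes that could be tested were still called. The levels of Spx, a spexin peptide precursor, were 0, 5.07 and 1.44 CPM, against 19.4, 49.5 and 39.5 CPM, and in that alternative its adjusted p was 0.569. Dlk1, an imprinted membrane protein of the Notch ligand family, was at 0, 2.53 and 4.31 CPM, against 23.1, 42.8 and 40.9 CPM (-3.66, SE 0.44). Il1rapl2, a synaptic adhesion protein related to the interleukin 1 receptor, was at 0, 26.6 and 4.31 CPM, against 124, 101 and 143 CPM (-3.01, SE 0.22), and its value was -5.27 without replicate 2 and -2.35 without replicate 3. Lhfp and Lhfpl2, a pair of tetraspan membrane proteins, had 4 and 3 UMIs over all members. The antisense RNA 1700042O10Rik had 1 UMI and overlaps Ddc, which had 3 and lost its call without replicate 2 (adjusted p = 0.116) and without replicate 3 (0.397). Against the nuclei low in Ebf1, the calls of Epha3, Ndst3, Glra2, Svep1, Col5a2 and Adamts9 were lost too, with Epha3 at a log2 fold change of -0.30.

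Factors known to mark neurons by birth order or by projection range, the temporal code list, had 0 called higher and 4 lower of 15 tested. Their median was -0.72, and over all genes tested 0.819% were called higher and 2.02% lower. Nfib was at 5.10, 25.3 and 11.5 CPM in Angpt1/Col25a1 nuclei, against 136, 139 and 77.3 CPM in other Meis nuclei (log2 fold change -2.66, SE 0.22, adjusted p = 1.46e-31). Zfhx3 was at 173, 172 and 185 CPM, against 487, 346 and 487 CPM (-1.18, SE 0.12, adjusted p = 3.31e-20). Onecut1 was at 0, 10.1 and 12.9 CPM, against 28.1, 41.9 and 38.1 CPM (-1.87, SE 0.32, adjusted p = 3.69e-07). None of these overlapped. Bcl11b was at 10.2, 19.0 and 8.62 CPM, against 27.2, 45.8 and 23.7 CPM, and its adjusted p of 0.00115 was 0.162 without replicate 2 and 0.0551 without replicate 3. Nfib and Bcl11b are also corticospinal markers, and the summed corticospinal list given above was lower in the members as well. The part of that list in these results was not tested.

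**Figure D3:**
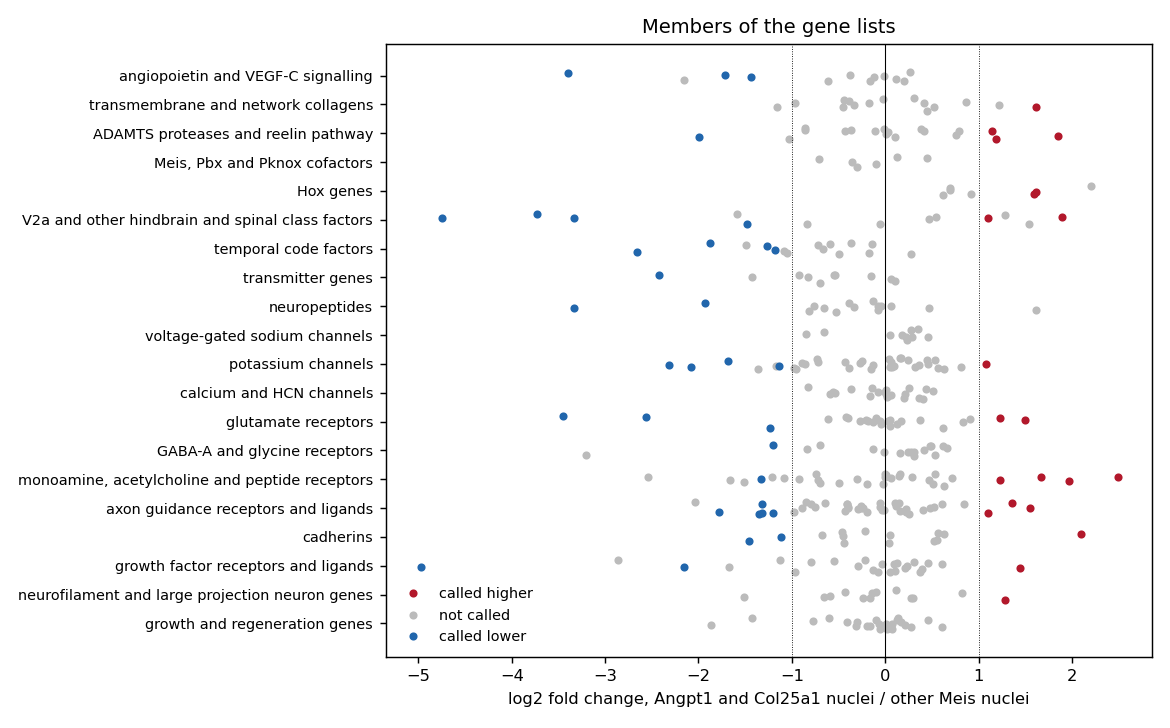
Log2 fold change of each tested gene with at least 1 UMI in members, Angpt1/Col25a1 nuclei over other Meis nuclei, by gene list, with genes called higher in red, lower in blue and not called in grey. Dotted lines mark the fold limit of the calls, most lists hold genes on both sides of 0, and the lists with genes called lower and none called higher were the temporal code, transmitter, neuropeptide, GABA-A and glycine receptor, and angiopoietin and VEGF-C lists.

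The signalling partners of the marker genes were mostly not called. Tek, which encodes the angiopoietin receptor Tie2, was at 56.1, 44.3 and 58.9 CPM in Angpt1/Col25a1 nuclei, against 48.6, 47.0 and 55.2 CPM in other Meis nuclei (log2 fold change 0.12, SE 0.19, adjusted p = 0.919). Angpt2, the related ligand, was at 25.5, 31.7 and 35.9 CPM, against 14.5, 28.7 and 37.0 CPM, and did not pass (0.21, SE 0.25). Both overlapped between the groups. Of the 12 tested genes of angiopoietin and VEGF-C signalling, 0 were called higher and 3 lower, beside 0.819% and 2.02% of all genes tested. The 3 were Ccbe1, Svep1 and Nrp1, the list median was -0.27, and DESeq2 called 1 of the 12. Ccbe1, a cofactor by which Adamts3 activates VEGF-C, had 2 UMIs over all members, a ratio of 0.0866 (95% exact counting interval 0.0105 to 0.314). Nrp1, a coreceptor of VEGF and class 3 semaphorins, was at 15.3, 25.3 and 8.62 CPM, against 63.8, 47.6 and 45.5 CPM (-1.44, SE 0.26, adjusted p = 1.54e-06), and -2.19 without replicate 2. Svep1, an extracellular ligand of Tie1, was at 0, 6.33 and 2.87 CPM, against 8.87, 14.7 and 15.4 CPM, and its adjusted p of 0.0216 was 0.0961 without replicate 2 and 0.553 without replicate 3.

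Among 15 tested genes of a collagen list, which holds transmembrane, network and other collagens, Col5a2 was called higher and 0 lower, with a median of -0.02. Col5a2 was at 0, 20.3 and 18.7 CPM in Angpt1/Col25a1 nuclei, against 4.37, 4.12 and 8.03 CPM in other Meis nuclei, so the groups overlapped, and its adjusted p of 0.00373 was 0.582 without replicate 2 and 0.125 without replicate 3. Col13a1 and Col23a1, transmembrane collagens like Col25a1, had 6 UMIs each over all members and did not pass. DESeq2 called 0 of the 15 collagen genes. Of 18 tested ADAMTS and reelin pathway genes, Adamts18, Adamts6 and Adamts9 were called higher and Adamtsl1 lower, with a median of 0.02. Beside both lists, 0.819% of all genes tested were called higher and 2.02% lower. Adamts6 was at 153, 108 and 146 CPM, against 76.1, 51.9 and 68.7 CPM (log2 fold change 1.14, SE 0.14, adjusted p = 2.53e-14). Adamts9, which overlaps the rule gene 9530026P05Rik, had an adjusted p of 0.0177, 0.205 without replicate 2 and 0.831 without replicate 3. Adamtsl1, a secreted protein without the protease domain, was at 5.10, 6.33 and 10.1 CPM, against 36.7, 31.1 and 33.1 CPM (-1.9998, SE 0.35, adjusted p = 8.93e-07). Of the 6 Meis, Pbx and Pknox genes outside the rule, 0 were called by edgeR, 1 was at an unadjusted p under 0.05 and DESeq2 called 0.

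Set against only the other Meis nuclei with Pard3b at 200 CPM or more, 185 of 9808 tested genes were called higher (1.89%) and 197 lower (2.01%), 3.89% in all. Set against those with Pard3b under 200 CPM, 114 of 14382 were called higher (0.793%) and 300 lower (2.09%), 2.88% in all. The 2 comparisons share the member sums, so their values are only set side by side. Erbb4 had a log2 fold change of 3.95 (SE 0.15) over high-Pard3b nuclei and 1.28 (SE 0.10) over low-Pard3b nuclei. Nox4 had 4.61 (SE 0.30) and 2.35 (SE 0.18), and Cdh12 had 3.34 (SE 0.14) and 1.98 (SE 0.10). Sox14 had 0.22 (SE 0.29, adjusted p = 0.812) over high-Pard3b nuclei and 2.33 (SE 0.36) over low-Pard3b nuclei. Sox14 was called in the second comparison and not in the first, and the difference between the comparisons was not tested. Reln, which encodes the secreted guidance protein reelin, was at 301, 280 and 369 CPM in Angpt1/Col25a1 nuclei, against 828, 731 and 742 CPM in high-Pard3b nuclei (-1.15, SE 0.12). Over low-Pard3b nuclei the Reln value was 0.80 (SE 0.11), under the fold limit. Nrp1 and Il1rapl2 were not called against high-Pard3b nuclei (-0.18 and -1.03, adjusted p = 0.878 and 0.385), nor were Grm5, Grm8, Sema3c, Ndst3, Bcl11b, Gfra2 and Hoxd4.

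Within the 96 members, some genes were present in nearly all nuclei and others in a part. Cdh12 and Thsd7a had UMIs in 95 nuclei each, and Hs6st3, Hs3st5, Thsd7b and Grm5 in 96. Their level varied, and 11 members for Cdh12 and 13 for Thsd7a lay under the mean of other Meis nuclei, 463 and 151 CPM. The Cdh12 level per nucleus had a median of 1829 CPM and quartiles of 1140 and 2423 CPM. Htr2c, a serotonin receptor, was absent in 22 members and otherwise reached 2785 CPM, with a median of 517 CPM and quartiles of 82.1 and 1062 CPM. Reln had no UMI in 26 members, a median of 252 CPM and a highest value of 1302 CPM. Erbb4 had no UMI in 23 members, a median of 736 CPM and a highest value of 2602 CPM. Nxph1, a neurexin ligand, had no UMI in 14 members, and Chrm2, a muscarinic receptor, in 47. These shares depend on depth as well as on expression. At 5000 UMIs per nucleus Htr2c was found in 70.2% of members, 55.1% of other Meis nuclei and 13.4% of high-Tox nuclei. For Erbb4 the shares were 65.1%, 30.6% and 4.34% in the same order of groups. Some members with high Hs3st4 were low in Cdh12 and Erbb4, such as 1 with 1099 CPM of Hs3st4, 378 of Cdh12 and 0 of Erbb4. Others were not, such as 1 with 740 CPM of Hs3st4, 2652 of Cdh12 and 1850 of Erbb4. Whether the members hold more than 1 type was not tested.

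**Figure D4:**
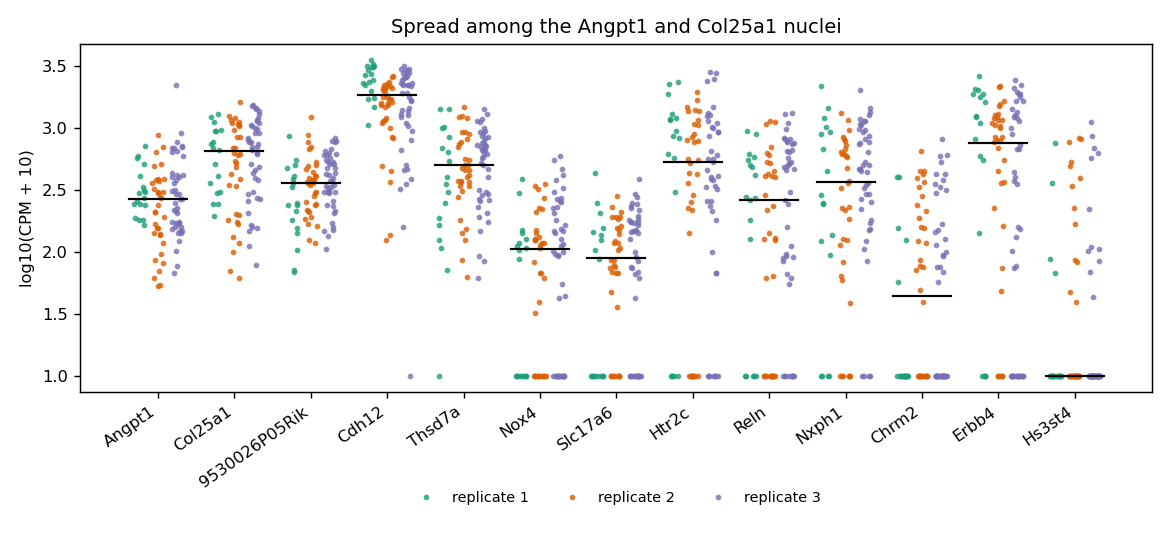
Log10 of CPM plus 10 for 13 genes in each of the 96 Angpt1/Col25a1 nuclei, coloured by replicate, with the median over all members as a bar and nuclei without a UMI at 1.0. Cdh12 and Thsd7a have UMIs in 95 nuclei each, with medians of 1829 and 493 CPM, and Htr2c, Reln, Erbb4 and Chrm2 have nuclei at 0 in each replicate.

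Nuclei that missed exactly 1 condition of the rule and had Meis at the limit, 72, 77 and 99 per library, carried intermediate levels, given as a description. Cdh12 was at 1332, 710 and 1256 CPM in them, between the values of the members and those of other Meis nuclei in every library. Thsd7a was at 306, 236 and 294 CPM and Ebf1 at 122, 294 and 118 CPM, again between the 2 groups. Sox14 stood at 11.3, 21.2 and 15.8 CPM, also in between. These nuclei form part of the other Meis nuclei, and with them left out 137 genes were called higher and 327 lower.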

How the data were processed

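Single-nucleus RNA was counted in 3 libraries. The authors deposited raw UMI counts of genes in barcodes from Cell Ranger, version 6.1.1 per the file headers and 7.0.1 with build mm10 per the submitters' processing notes. The sources used here do not say whether introns or strand were used in counting. No columns of other series were present (0).

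From these counts, nuclei were chosen by the rule given in the report, and UMIs were summed per library and group. The 6 sums entered edgeR 4.0.16 in R 4.3.3 (quasi-likelihood test, TMM scaling, filterByExpr, library as block), with 2 residual degrees of freedom and a common biological coefficient of variation of 0.0871. The block follows from the design, since both sums of a library come from the same tissue. Adjusted p-values cover all 14660 tested genes of the fit, and the 9 genes of the rules and their markers are left out of every count. The script was tested on simulated data, and standard errors were taken as the log2 fold change over the root of the F statistic. CPM in the text are UMIs of a gene over all UMIs of the summed nuclei. Doublets were called by Scrublet in Scanpy 1.11.5 for a 6% rate, and were kept except in 1 alternative. DESeq2 1.42.0, other filters, scalings, comparison nuclei, member rules and left-out replicates were tried as alternatives.

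Named genes are the 12 largest and 12 smallest log2 fold changes among called genes with the same direction in 3 of 3 libraries and at least 20 CPM in the higher group, called members of the gene lists, and pathway partners of the markers. Genes named outside this rule, or as values that did not pass, were chosen after their values were seen. Some tested genes are not reported here. The members and the lists were chosen with earlier results of these data known.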

Additional observations from a re-analysis of the deposited data

How the results depend on the processing

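The counts of 120 genes called higher and 296 called lower rested on the block and on which nuclei were compared. Without the replicate block, in which both sums of a library are paired, 66 were called higher and 135 lower. DESeq2 called 71 higher and 119 lower. It called 0 genes of the transmitter, neuropeptide, collagen, neurofilament, and GABA-A and glycine receptor lists, where edgeR called 2, 2, 1, 1 and 1. It called 1 angiopoietin and VEGF-C gene and 4 class factors, where edgeR called 3 and 8. Of potassium channels it called 6, where edgeR called 5. The other list counts were equal or lower in DESeq2. With 3 comparison nuclei per member matched in UMIs, which left 8860 genes to test, 65 were higher and 158 lower, and with nuclei thinned to 5000 UMIs before the rule, 42 and 146. Thinning changed the UMIs, the limits and the members. Its rule asked for at least 1 UMI each of Angpt1, Col25a1 and 9530026P05Rik, and 50 of its 72 members were among the 96. The separate parts of these changes were not tested. Against high-Pard3b nuclei alone 185 and 197 were called. Leaving out 1 replicate gave between 80 and 116 higher and between 182 and 238 lower. The stricter rule asked for at least 4 UMIs each of Angpt1 and Col25a1 and 2 of 9530026P05Rik. It left 2, 15 and 19 members in replicates 1, 2 and 3, so its replicate 1 sum rests on 2 nuclei. The members that failed it were kept out of the comparison nuclei. It moved the mean share of members to 0.382%, with 104 genes higher and 204 lower. Under the main rule, leaving out 1 replicate gave shares between 0.9499% and 1.23%. DESeq2's size factors in the edgeR fit called 120 higher and 296 lower, and 416 of the 416 called genes were still called. Of the called genes that could be tested, 126 of 380 were kept with thinning, 186 of 416 in DESeq2 and 194 of 416 without the block. The stricter rule kept 206 of 412, high-Pard3b nuclei 149 of 268 and depth matching 194 of 258. Low-Pard3b nuclei kept 390 of 412, and leaving out replicates 1, 2 and 3 kept 319 of 416, 218 of 416 and 228 of 415. Some genes named in the text lost their calls both without the block and in DESeq2. These were Lhx3, Hoxd4, Bcl11b, Gfra2, Glra2, Svep1, Col5a2, Adamts9, Ddc, Crh and Gm27016. Gm16222, Slc6a2 and Cartpt lost theirs without the block, and DESeq2 called neither Slc6a2 nor Cartpt. Grm8, Kcnn3, Prph and Ccbe1 lost theirs in DESeq2. Of the named results, 45 lost their call with thinning, and 21 lost it under the stricter rule. Beside those listed in the report, thinning ended the calls of Calcr, Epha3, Gfra2, Glra2, Svep1, Ccbe1, Col5a2, Adamts9, Hoxd4, Lhx3, Lhfp, Lhfpl2, Ddc, Cartpt, Crh, Prph, Bche, Gm47757 and A830019P07Rik. The stricter rule ended those of Lhx3, Hoxd4, Bcl11b, Gfra2, Glra2, Svep1, Ccbe1, Col5a2, Adamts9, Ddc, Slc6a2, Cartpt, Crh, Prph and A830019P07Rik. Of 89 called genes listed for naming, 25 kept their direction and their call under all alternatives in which they could be tested, and 5 reversed in at least 1. Among the 25, 1700042O10Rik could be tested in 15 alternatives and Dlk1 in 16, and the others in 17.

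Reversed signs were small except where stated, and their causes were not tested unless the construction shows them. Against high-Pard3b nuclei the log2 fold changes were -1.15 for Reln (adjusted p = 1.68e-06), -0.19 for Prph, -0.13 for Slc17a6, -0.18 for Shox2 and -0.050 for Gm47757. Thinning gave -0.045 for Grk4. The stricter rule gave -0.98 for Col5a2, -0.25 for Slc17a6 and 0.28 for Lhx4. Comparison nuclei low in Ebf1 gave 0.079 for Ebf1 by construction. Slc17a6 was -0.031 with no filter, Lhx4 was 0.091 against low-Pard3b nuclei and 0.038 with depth matching. With 1 replicate left out Shox2 lay between -0.023 (without replicate 2) and 0.94, and Lhx4 between -0.17 and 0.19 (without replicate 3). Depth limits the members of replicate 1 most, with 18 nuclei and 196109 UMIs.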

Other observations

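Neighbouring genes were often called together. Of the 120 genes called higher, 38 (31.7%) had another higher gene or a marker of the rule within 200 kb, against 342 of 14523 other tested genes (2.35%). Of the 296 genes called lower, 55 (18.6%) had another lower gene within 200 kb, against 936 of 14347 other tested genes (6.52%). Markers of the rule, high by the choice of nuclei, counted as neighbours for higher genes only, so the 2 directions were not counted alike. Adamts9 counted through 9530026P05Rik alone, while Gm13404 and the noncoding RNA C230014O12Rik had both Pbx3 and each other. The following genes were chosen after their values were seen. Cbln1, which encodes a synapse-organising protein of the cerebellum, was at 10.2, 5.07 and 5.74 CPM in Angpt1/Col25a1 nuclei, against 0.729, 1.03 and 0.530 CPM in other Meis nuclei (log2 fold change 3.03, SE 0.92, edgeR adjusted p = 0.0215). Its neighbours on chromosome 8, the noncoding RNAs Gm2694 and Gm27016, had log2 fold changes of 2.29 and 2.10. The Cbln1 adjusted p was between 0.0742 and 0.590 with 1 replicate left out, and that of Gm27016 was 0.0642 without replicate 2 and 0.813 without replicate 3. Sox14 and the noncoding RNA Gm47757 (1.89 and 1.76), Htr7 and A830019P07Rik (1.24 and 1.70), and Gm13404 and the marker gene Pbx3 (2.86 and 1.29) were further pairs. The Gm47757 adjusted p was 0.277 without replicate 2, and that of Sox14 was 0.124. Such genes can overlap or share unspliced reads, and the part of this in the calls was not tested.

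The butyrylcholinesterase gene Bche, which breaks down choline esters, was at 35.7, 27.9 and 44.5 CPM in Angpt1/Col25a1 nuclei, against 7.78, 11.3 and 13.6 CPM in other Meis nuclei (log2 fold change 1.71, SE 0.30, edgeR adjusted p = 6.95e-07), without overlap. In edgeR's test 0 of 24 growth and regeneration genes were called, with 4 at an unadjusted p under 0.05, and DESeq2 called 0. Of 13 neurofilament and large projection neuron genes, 1 was called higher, Prph, at 15.3, 29.1 and 24.4 CPM, against 9.60, 10.2 and 11.9 CPM (1.28, SE 0.33, adjusted p = 0.00305), and its adjusted p was 0.347 without replicate 2 and 0.104 without replicate 3. Of 15 neuropeptide genes, 0 were called higher and 2 lower, beside 0.819% and 2.02% of all genes tested. DESeq2 called 0 of the neuropeptide genes, and the 2 called by edgeR were Cartpt, with 1 UMI over all members, and Crh, with 5. Both calls were lost without replicate 2 (adjusted p = 0.651 for Cartpt and 0.419 for Crh) and without replicate 3 (0.257 for Cartpt and 0.331 for Crh).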
